A study of Homo sapiens with 15 samples.

Results

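The interferon-stimulated genes described here are a fixed list of 45 genes that cells switch on in response to interferon, among 61552 gene IDs counted in each library. All 45 were found by symbol, each with 1 Ensembl ID. RNA-seq was done on H1299, an established line from a human lung carcinoma that makes no p53 protein of its own, after overexpression of p53 constructs. The data collected in 2023 hold cells with the control vector (Ctrl) and cells with wild-type p53 (WT), and those of 2022 hold cells with p53, LLPSEp53_1 or LLPSEp53_2, with 3 libraries in each group. The LLPSEp53 constructs come from a study on tuning the phase separation of p53, and what was changed in each is not given in the sources used here, nor are the vector, the promoter that drives it, the time after its introduction or any interferon or virus added. All groups share the H1299 background, and no group of 2022 carried a vector without p53. The p53 group's second replicate is labelled as collected in another batch than the rest of 2022. No label says that replicates were separate cultures, so each p-value reflects library-to-library spread that may be technical only.

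Interferons are secreted proteins made by cells that sense viral or misplaced nucleic acid. Type I interferons (such as IFNB1) and type III interferons (the IFNL genes) bind separate receptors and signal through the kinases JAK1 and TYK2 to a transcription factor complex that includes STAT2 and IRF9. That complex binds the interferon-stimulated response element (ISRE) in the promoters of target genes, whose products detect viral RNA, block its translation, degrade it or keep virus from entering or leaving the cell. ISG15, IRF9 and TRIM22 have also been described as targets of p53, which is why they are followed below.

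The promoters of 6 of these genes are printed because their genes carried the calls below, and because they show the response element itself. Each runs 5′ to 3′ on the gene's own strand from 250 bases before to 50 bases after the start in RefSeq (GRCh38.p14), with the ISRE core (GAAA, any 2 bases, then GAAA again) in capitals on whichever strand it lies. Of the 10 called genes with a promoter to search, OAS1 alone lacked that exact core. Its promoter holds the GAAA repeats closer together, as gaaacgaaa, which the search did not count.
IFI44L, chr1:78620198-78620497, plus strand: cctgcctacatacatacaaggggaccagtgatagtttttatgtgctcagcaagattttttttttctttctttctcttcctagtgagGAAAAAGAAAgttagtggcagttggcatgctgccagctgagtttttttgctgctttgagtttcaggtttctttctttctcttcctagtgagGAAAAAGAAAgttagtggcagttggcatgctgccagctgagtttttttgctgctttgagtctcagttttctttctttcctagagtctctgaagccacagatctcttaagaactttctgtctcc
IFI6, chr1:27672143-27672442, minus strand: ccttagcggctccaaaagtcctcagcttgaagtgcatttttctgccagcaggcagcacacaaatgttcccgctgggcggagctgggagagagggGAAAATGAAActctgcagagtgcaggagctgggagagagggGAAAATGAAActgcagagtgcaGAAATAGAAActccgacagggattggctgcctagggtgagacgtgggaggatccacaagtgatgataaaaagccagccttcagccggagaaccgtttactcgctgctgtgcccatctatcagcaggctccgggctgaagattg
IFIT5, chr10:89414318-89414617, plus strand: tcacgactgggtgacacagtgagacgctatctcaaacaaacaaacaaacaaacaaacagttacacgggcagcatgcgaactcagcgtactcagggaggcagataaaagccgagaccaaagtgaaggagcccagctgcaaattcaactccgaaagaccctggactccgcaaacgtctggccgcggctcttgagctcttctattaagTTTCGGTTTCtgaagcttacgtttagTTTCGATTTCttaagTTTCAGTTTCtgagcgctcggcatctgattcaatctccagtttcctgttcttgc
ISG15, chr1:1013247-1013546, plus strand: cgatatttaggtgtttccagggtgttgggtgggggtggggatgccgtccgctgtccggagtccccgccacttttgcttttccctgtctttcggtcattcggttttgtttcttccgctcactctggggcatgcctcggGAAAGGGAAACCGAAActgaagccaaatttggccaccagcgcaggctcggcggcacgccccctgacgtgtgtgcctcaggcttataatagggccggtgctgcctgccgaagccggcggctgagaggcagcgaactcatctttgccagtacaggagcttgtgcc
MX1, chr21:41420308-41420607, plus strand: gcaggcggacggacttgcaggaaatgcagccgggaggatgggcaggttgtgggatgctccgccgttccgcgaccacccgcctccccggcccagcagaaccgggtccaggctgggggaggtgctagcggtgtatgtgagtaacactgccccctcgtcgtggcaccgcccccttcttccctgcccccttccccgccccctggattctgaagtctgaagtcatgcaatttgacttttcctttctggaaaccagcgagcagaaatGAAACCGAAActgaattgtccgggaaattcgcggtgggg
OAS1, chr12:112906712-112907011, plus strand: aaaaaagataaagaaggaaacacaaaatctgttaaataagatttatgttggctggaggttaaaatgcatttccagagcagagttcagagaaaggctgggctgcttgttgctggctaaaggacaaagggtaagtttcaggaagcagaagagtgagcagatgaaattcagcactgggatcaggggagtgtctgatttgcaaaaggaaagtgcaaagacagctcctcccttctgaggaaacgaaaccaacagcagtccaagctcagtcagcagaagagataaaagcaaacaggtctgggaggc

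The core occurred in 23 of the 35 listed genes that have an entry in the promoter table (65.7%), against 996 of 27305 promoters of the same length (3.65%), with both strands searched. IFI6 and IFIT5 each held 3 cores. In IFI6 they begin 156, 115 and 93 bases before the start, and in IFIT5 all 3 lie within 45 bases of it. The cores of IFI44L begin 164 and 73 bases before the start, and those of ISG15, which overlap each other, 113 and 107 bases before it. In MX1 the single core lies after the start. The gamma-interferon-activated element (GAS), searched as TTCNNNGAA, occurred in 11 of the 35 (31.4%) against 7.88% of all promoters. A p53 response element, searched as a pair of consensus half-sites with 0 to 13 bases between them, occurred in 0 of the 35 and in 8 of all promoters (0.0293%). With so few matches among all promoters, this search cannot show whether the 35 genes lack p53 sites. These matches describe letters in a 300-base window, not binding, and the other 10 genes had no entry.

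Library sizes ranged from 13535397 to 19228748 counts, and 3 counts, the limit that a count of 0 allows, correspond to 0.156 to 0.222 CPM, the library-scaled count unit of edgeR. CPM values were scaled within each collection year, so levels of 2023 and 2022 are set side by side only as description. The p53 target genes CDKN1A and MDM2 were at 231 to 251 and 57.6 to 61.1 CPM in Ctrl and at 715 to 786 and 247 to 299 CPM in WT. CDKN1A was at 284 and 286 CPM in p53 replicates 1 and 3, at 399 to 451 CPM in LLPSEp53_1 and at 232 to 281 CPM in LLPSEp53_2. MDM2 was at 202 and 165 CPM in these p53 libraries, at 154 to 234 CPM in LLPSEp53_1 and at 125 to 165 CPM in LLPSEp53_2. Carcinoma markers summed to 2546 to 4448 CPM, carried by KRT8, KRT18 and VIM, while the epithelial adhesion genes EPCAM (at most 1.66 CPM) and CDH1 (at most 0.314 CPM) were close to absent. Markers of differentiated lung epithelium were low (1.41 to 8.42 summed CPM over 6 genes). NKX2-1 was detected, at 0.922 to 6.995 CPM. The others were close to absent, at most 0.971 CPM, with SFTPA1 at 0 in every library. Leukocyte markers summed to 0.113 to 2.20 CPM over 10 genes, and PTPRC, MS4A1 and LILRA4 were at 0 in all 15 libraries.

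The genes were expressed in every group without any stated interferon treatment. Together they took from 0.503% of counts in an LLPSEp53_2 library to 3.16% in p53 replicate 2. Per kilobase of exon, the highest mean level in Ctrl was that of ISG15 (2268 CPM per kb), a ubiquitin-like protein attached to other proteins. IFI6, a membrane protein of mitochondria and endoplasmic reticulum, followed at 661, then IFIT3 at 652 and IFIT2 at 392, both of a family that binds viral RNA and translation factors. OASL (302), IFITM3 (301), the ISG15 ligase HERC5 (256) and IFIT1 (255) came next. At the other end, CMPK2 had at most 9 reads in a library, and it was below the count filter in both years. EPSTI1 was below it in 2023 and MX2 in 2022, which left 43 genes tested in each comparison.

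Libraries differed within groups in a way that touched nearly all of these genes, before any comparison is made. The summed level of the 45 genes was 12138, 19888 and 14042 CPM in Ctrl replicates 1, 2 and 3 and 10181, 15714 and 12411 CPM in WT. It was 8984, 33403 and 8359 CPM in p53, 8505, 7884 and 8342 CPM in LLPSEp53_1, and 6177, 5030 and 5801 CPM in LLPSEp53_2. The second replicate was thus the highest library of Ctrl, of WT and of p53, and the lowest of both LLPSEp53 groups. WT replicate 1 had the lowest sum of the 2023 libraries.

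The library of the other batch, p53 replicate 2, stood farthest apart. Of the 43 genes tested in 2022, 41 were at least 2-fold above the mean of p53 replicates 1 and 3 (10.9% of all 17459 tested genes were), and 42 were above both replicates (44.1% of all genes). The median ratio over the 43 genes was 4.25-fold. BST2, which tethers virus particles to the cell, had 64.5 CPM against 1.34 and 2.11 CPM, and TRIM22, a ubiquitin ligase that restricts viruses, had 41.9 CPM against 1.09 and 1.37 CPM. GBP2, an interferon-induced GTPase, was the exception, with 6.67 CPM against 6.52 and 9.93 CPM.

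The same library held reads of the interferon genes themselves. IFNB1 had 105 reads, IFNL1 189, IFNL2 88 and IFNL3 205, where p53 replicates 1 and 3 had at most 4 reads of each. The dendritic cell and interferon-induced gene LAMP3 was at 282 CPM against 31.1 and 33.0 CPM. The type I receptor gene IFNAR1 was not among the genes that were high there, with 919 reads against 2122 and 1709. The p53 target genes moved with the interferon-stimulated genes in this library, with CDKN1A at 723 CPM against 284 and 286 CPM and MDM2 at 368 CPM against 202 and 165 CPM, and their part was not tested. These are values of 1 library, with no test, and the batch and the library cannot be told apart.

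Replicate 2 of Ctrl and of WT showed a smaller rise over their own groups. In Ctrl, 42 of the 43 genes tested in 2023 were higher in replicate 2 than in both other replicates (35.9% of all 16156 tested genes), and 14 were at least 2-fold above their mean (1.52%). In WT the counts were again 42 (35% of all genes) and 10 (1.13%). The highest ratios in Ctrl were those of TRIM22 at 3.66-fold and BST2 at 3.38-fold, and ISG15 was among the low ones at 1.16-fold. IFNL3 had 64 reads in Ctrl replicate 2 against 5 and 14, and IFNB1 had 32 against 9 and 10. Across the 42 genes measured in both years, the log2 ratio in p53 replicate 2 and that in Ctrl replicate 2 had Pearson's r = 0.663 and Spearman's rho = 0.615, and p53 and WT had 0.822 and 0.768. These are correlations across genes, which are not independent replicates, and the points share each gene's abundance and the depth of its libraries.

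**Figure D1:**
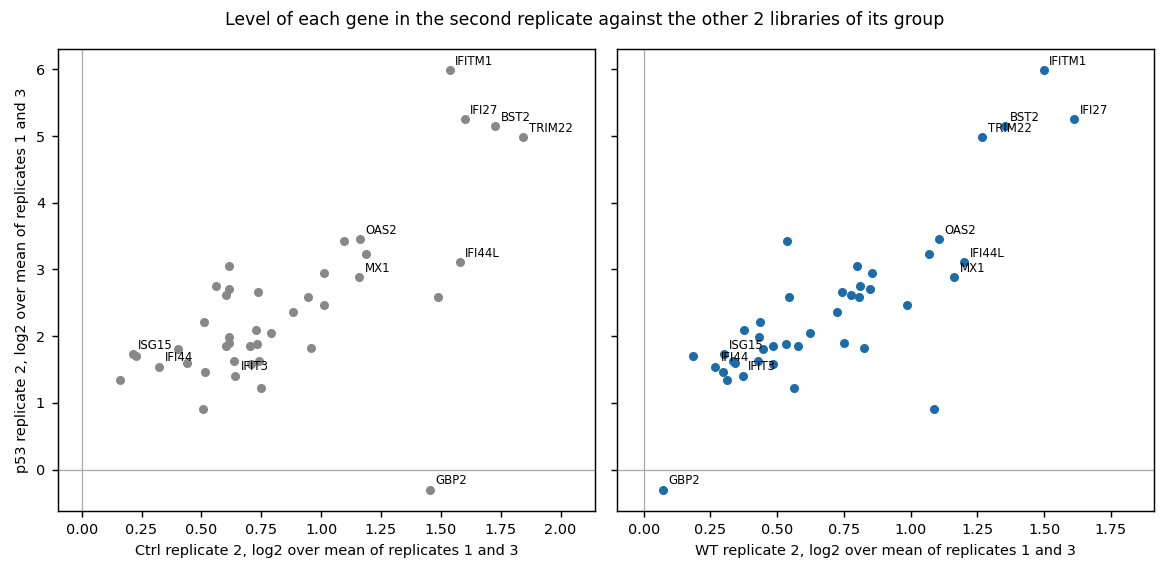
Each point is 1 interferon-stimulated gene: the log2 ratio of its CPM in replicate 2 to the mean of replicates 1 and 3, in p53 (vertical axis) against Ctrl (left) or WT (right). TRIM22, BST2 and IFI27 are high on both axes, and GBP2 is the point below 0 on the vertical axis.

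WT was set against Ctrl to find genes that p53 regulates. None of the 43 tested interferon-stimulated genes was called at an adjusted p under 0.05, either by edgeR (0.873% of all genes were called lower) or by DESeq2 (1.37% called lower). All 43 had a fitted difference below 0, as did 51.7% of all genes. At an unadjusted p under 0.05, 11 were lower and 0 higher, where 9.22% of all genes were lower. In 0 of the 43 did the 3 WT libraries all lie below the 3 Ctrl libraries, against 10.5% of all genes. The median log2 difference was -0.32 over the 43 genes and -0.01 over all genes. It ranged from -0.64 without WT replicate 2 to -0.02 without Ctrl replicate 2. In bulk RNA, fewer cells expressing a gene and less RNA per cell cannot be told apart.

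Among the transcription factors, IRF7, which amplifies the induction of interferon genes, came nearest to a call. It was at 65.2, 130 and 79.6 CPM in WT replicates 1, 2 and 3 and at 115, 191 and 135 CPM in Ctrl (log2 difference -0.68 ± 0.19 SE, edgeR adjusted p = 0.052). Its groups overlapped only through WT replicate 2, which lay above Ctrl replicate 1. IRF9, the DNA-binding partner of STAT2, had 1.03, 2.59 and 1.29 CPM in WT and 1.48, 2.48 and 1.95 CPM in Ctrl. Its value is uncertain, since 1838 of its 3794 exon bases are shared with an overlapping gene on the same strand.

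Among the effectors, OASL was at 517, 999 and 677 CPM in WT and 766, 1449 and 972 CPM in Ctrl (-0.54 ± 0.21, edgeR adjusted p = 0.17). BST2 was at 1.38, 4.39 and 1.94 CPM against 2.78, 11.2 and 3.85 CPM (-1.22 ± 0.42, adjusted p = 0.12). In both genes the library order within each group was the same, replicate 2 highest, and that spread exceeded the difference between groups. Without Ctrl replicate 2 the differences were -0.25 and -0.38. The RNA helicase gene DHX58, a regulator of RNA sensing, was at 14.1, 22.9 and 17.5 CPM against 19.6, 35.7 and 23.4 CPM (-0.53 ± 0.19, edgeR adjusted p = 0.14). The IFIT genes had small differences, from -0.18 to -0.11. IFIT2 was at 1223, 1742 and 1462 CPM in WT and 1188, 2184 and 1451 CPM in Ctrl, so that the groups interleaved.

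The 2 other genes described as p53 targets gave no call either. ISG15 was at 1433, 2024 and 1855 CPM in WT and 2160, 2349 and 1894 CPM in Ctrl (-0.27 ± 0.14, edgeR adjusted p = 0.33). TRIM22 was at 3.44, 9.32 and 4.18 CPM against 1.77, 12.9 and 5.26 CPM, and its difference of -0.24 carried an SE of 0.43. The count of calls depended on the libraries used. It was 21, all lower, without Ctrl replicate 1, where 184 of 16614 genes were called lower. Without WT replicate 2 it was 10, where 159 of 16548 genes were called lower. With both second replicates left out, an alternative chosen after seeing the data, 6 of 43 were called lower (463 of 16234 genes were). Among them were IRF7 (-0.79, adjusted p = 0.0011, edgeR) and OASL (-0.54, adjusted p = 0.044, edgeR), and the median was -0.24. The count of calls was 17 of 45 with no filter on low counts (295 of 34327 genes were called lower) and 0 without any other single library. With the replicate number as a block it was 18 of 43, all lower, where 751 of 16156 genes were called lower. No label ties same-numbered libraries together.

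The constructs of 2022 were compared by edgeR in a fit of all 9 libraries with a term for the other batch. In it p53 replicate 2 enters no difference, and p53 is represented by replicates 1 and 3. LLPSEp53_1 and LLPSEp53_2 were each set against these same p53 libraries, so the differences of both share them.

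LLPSEp53_2 against p53 gave the most calls among these genes. Of 43 tested, 13 fell and 0 rose (1.83% of all 17459 genes were called lower), and 42 had a difference below 0 (49.1% of all genes). In 37 of them all 3 LLPSEp53_2 libraries lay below both p53 libraries (17.5% of all genes), and 35 were lower at an unadjusted p under 0.05 (7.94%). The median log2 difference was -0.69, where that of all genes was 0.006. DESeq2 called 27 of the 43 lower, against 2.58% of all genes.

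The steepest call was that of IFI44L (GRCh38 chromosome 1, 78619922 to 78646145, plus strand), an interferon-induced gene that restrains the response itself. It was at 4.99, 2.85 and 6.98 CPM in LLPSEp53_2 and at 23.9 and 21.4 CPM in p53 replicates 1 and 3. The highest LLPSEp53_2 library was thus well below the lower p53 library. The fall was 4.57-fold (log2 difference -2.19 ± 0.32 SE, edgeR adjusted p = 0.003). This call was kept without each of the 9 libraries in turn and under the other 6 alternatives.

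The OAS family, whose enzymes OAS1, OAS2 and OAS3 make the signal that activates the nuclease RNase L, fell in all 4 of its members. OAS1 (chromosome 12, 112906777 to 112933222, plus strand) went from 30.0 and 31.8 CPM in p53 to 14.4, 8.68 and 13.1 CPM, a 2.56-fold fall (-1.36 ± 0.20, edgeR adjusted p = 0.0041). OAS2 went from 57.1 and 50.3 to 24.5, 15.6 and 26.5 CPM (2.42-fold), and OAS3 from 496 and 510 to 219, 196 and 283 CPM (2.16-fold). OASL, which lacks the enzyme activity, fell 1.57-fold (edgeR adjusted p = 0.035). Its call was lost without p53 replicate 1 or 3, without LLPSEp53_1 replicate 2 and without each LLPSEp53_2 library. The difference was -0.539 without p53 replicate 1 and -0.754 without p53 replicate 3. OAS1, OAS3 and OAS2 lie side by side on chromosome 12, with OASL further along it, and in none of the 4 did the groups overlap.

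The dynamin-like GTPase MX1 (chromosome 21, 41420304 to 41459214, plus strand), which traps viral nucleoprotein, was at 37.4, 27.8 and 39.1 CPM in LLPSEp53_2 and 76.2 and 86.3 CPM in p53. It fell 2.34-fold (-1.23 ± 0.19, edgeR adjusted p = 0.005). The guanylate-binding GTPases fell with it. GBP1 went from 28.2 and 31.3 to 18.3, 14.3 and 16.9 CPM (1.81-fold), and GBP2 from 6.52 and 9.93 to 2.65, 2.07 and 4.53 CPM (2.66-fold), although 621 of the exon bases of GBP2 are shared with GBP7. MX2 was at 0.194 to 0.503 CPM in LLPSEp53_2 and 0.639 and 0.620 CPM in p53, and was not tested.

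In the IFIT family only IFIT5 was called, from 160 and 148 CPM in p53 to 79.8, 63.0 and 93.8 CPM (1.95-fold lower, edgeR adjusted p = 0.011). IFIT1, IFIT2 and IFIT3 had differences of -0.53, -0.41 and -0.58 with no overlap of the groups. Among the sensors IFIH1 (MDA5, which binds long double-stranded RNA) fell 1.66-fold, from 646 and 618 to 392, 330 and 419 CPM. That call (edgeR adjusted p = 0.035) was lost without p53 replicate 1 or 3, without LLPSEp53_1 replicate 2 and without each LLPSEp53_2 library. The difference of IFIH1 stayed between -0.806 and -0.636 without any single library. Among the transcription factors IRF7 fell 1.82-fold, from 56.0 and 88.7 to 43.5, 37.0 and 38.6 CPM. Its difference was -0.87, and -0.50 without p53 replicate 3, and its call was lost without that library, without LLPSEp53_1 replicate 2 and without each LLPSEp53_2 library. IRF9 was the single tested gene with a difference above 0 (0.10 ± 0.27), at 3.58, 3.11 and 3.52 CPM against 2.62 and 3.72 CPM.

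IFI6 (chromosome 1, 27666061 to 27672218, minus strand) fell 2.18-fold, from 256 and 217 to 132, 96.9 and 96.7 CPM (edgeR adjusted p = 0.025). PLSCR1, a membrane phospholipid scramblase with antiviral activity, fell 1.74-fold, from 197 and 166 to 106, 86.0 and 120 CPM. In the ISG15 conjugation and HERC group all 4 genes were lower at an unadjusted p under 0.05 and 0 were called. Low-count genes showed large ratios without a call, such as RSAD2, encoding viperin, at 0.431, 0.130 and 0.314 CPM against 0.831 and 1.37 CPM, and BST2 at 0.925, 0.259 and 0.503 CPM against 1.34 and 2.11 CPM. IFITM3, which blocks virus entry, and the nuclease gene ISG20 had overlapping groups, with differences of -0.09 ± 0.16 and -0.08 ± 0.24.

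The number called moved with single libraries. It was 1 without p53 replicate 3, 4 without p53 replicate 1, 7, 3 and 9 without LLPSEp53_2 replicates 1, 2 and 3, and 25, 10 and 30 without LLPSEp53_1 replicates 1, 2 and 3, which enter only the spread. MX1 and OAS1 lost their calls without p53 replicate 3 (adjusted p = 0.074 and 0.058, edgeR) and in no other of the 15 alternatives. Without LLPSEp53_2 replicate 2, of the genes called in the full fit only IFI44L, MX1 and OAS1 kept their calls. Over all genes the number called moved too, and 928 were called in either direction without LLPSEp53_1 replicate 3. The moves in these counts can therefore not be told from moves over all genes. The median over the 43 genes stayed between -0.78 and -0.61 without any single library.

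In LLPSEp53_1, differences from p53 went in both directions. Of 43 tested genes, 1 was called lower, GBP2, and 0 higher (0.836% of all genes were called lower). Differences were below 0 in 29 genes and above 0 in 14 (50% of all genes were below 0), and the median was -0.16. In 15 genes all LLPSEp53_1 libraries lay below both p53 libraries (14.7% of all genes). At an unadjusted p under 0.05, 9 genes were lower (7.34% of all genes) and 3 higher (5.72%). DESeq2 called 1 gene lower, where it called 1.23% of all genes.

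GBP2 had 2.78, 2.55 and 3.39 CPM in LLPSEp53_1 and 6.52 and 9.93 CPM in p53, a 2.82-fold fall (-1.50 ± 0.31, edgeR adjusted p = 0.045). Its call was lost without p53 replicate 1 or 3, without LLPSEp53_1 replicate 2 and without LLPSEp53_2 replicates 1 or 2. The difference of GBP2 ranged from -1.76 without p53 replicate 1 to -1.16 without p53 replicate 3. Without LLPSEp53_1 replicate 1, 7 interferon-stimulated genes were called, and 568 of all genes. XAF1, a proapoptotic interferon-induced gene, had 1.39, 0.536 and 0.677 CPM against 1.53 and 2.79 CPM (-1.33 ± 0.44, adjusted p = 0.24, edgeR), and 2535 of its exon bases lie opposite an antisense gene. IFIT5 had 120, 95.1 and 104 CPM against 160 and 148 CPM (-0.53 ± 0.17, edgeR adjusted p = 0.23). No library of LLPSEp53_1 reached the lower p53 library in any of the 3 genes.

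The 3 genes with an unadjusted p under 0.05 in the other direction were ISG15, IFITM3 and ISG20. ISG15 was at 1161, 1383 and 1726 CPM in LLPSEp53_1 and 1089 and 1038 CPM in p53 (0.42 ± 0.18, edgeR adjusted p = 0.35). ISG20 was at 35.2, 36.5 and 59.2 CPM against 28.1 and 32.3 CPM (0.53 ± 0.24, adjusted p = 0.37, edgeR), and IFITM3 at 245, 261 and 314 CPM against 200 and 227 CPM (0.36 ± 0.16). In all 3 the groups did not overlap and LLPSEp53_1 replicate 3 was the highest library. Without it the differences were 0.26 for ISG15, 0.25 for ISG20 and 0.25 for IFITM3. IFITM3 has near-identical relatives, among which the counting could split reads.

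Between the LLPSEp53 constructs, IFI6 and ISG15 were lower in LLPSEp53_2. These were the 2 of 43 tested genes that fell, and 0 rose (0.349% of all genes were called lower). Differences were below 0 in 41 (50.2% of all genes), with a median of -0.51. At an unadjusted p under 0.05, 33 were lower (4.50% of all genes), and in 31 the libraries did not overlap (7.03%). DESeq2 called 12 lower, against 0.768% of all genes. In this comparison 3 libraries stood on each side.

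IFI6 was at 132, 96.9 and 96.7 CPM in LLPSEp53_2 and 207, 194 and 346 CPM in LLPSEp53_1, a 2.29-fold fall (-1.20 ± 0.21, edgeR adjusted p = 0.031). ISG15 (chromosome 1, 1001138 to 1014540, plus strand) was at 893, 752 and 636 CPM against 1161, 1383 and 1726 CPM, a 1.87-fold fall (-0.90 ± 0.16, edgeR adjusted p = 0.031). In ISG15 the p53 libraries, at 1089 and 1038 CPM, lay between the groups. IRF7 was at 43.5, 37.0 and 38.6 CPM against 67.7, 64.9 and 84.9 CPM (-0.87 ± 0.18, edgeR adjusted p = 0.064), with no overlap. GBP2 and IRF9 had differences above 0, of 0.08 ± 0.30 and 0.08 ± 0.25.

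Both calls were lost without p53 replicate 1 or 3 and without LLPSEp53_2 replicate 2 or 3, that of ISG15 also without LLPSEp53_1 replicate 2 (adjusted p from 0.059 to 0.19, edgeR). Both were also lost with only these groups in the fit (adjusted p = 0.070 and 0.073, edgeR) and without the batch term. Without LLPSEp53_1 replicate 3, 9 interferon-stimulated genes were called, and 198 of all genes.

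Other genes of the pathway were taken from a list of 80, of which 64 were tested in 2023 and 62 in 2022. In WT against Ctrl 2 were called higher (3.24% of all genes were) and 0 lower. TBK1, the kinase that activates IRF3, was at 55.1, 55.8 and 59.3 CPM in WT and 39.3, 44.97 and 36.7 CPM in Ctrl (0.49 ± 0.11, edgeR adjusted p = 0.0093). PTPN6, a phosphatase that damps receptor signalling, rested on 13, 11 and 11 reads against 3, 1 and 4 (adjusted p = 0.043, edgeR). The p53 targets TLR3 and IRF5, named for that reason, were not called. IRF5 was at 8.66, 8.90 and 7.82 CPM in WT and 4.14, 5.46 and 6.18 CPM in Ctrl (0.68 ± 0.19, edgeR adjusted p = 0.052), without overlap, and TLR3 had a difference of 0.07 ± 0.32.

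In LLPSEp53_2 against p53, 5 of the 62 fell and 0 rose (1.83% of all genes were called lower), and all 5 are themselves interferon-inducible. LAMP3 went from 31.1 and 33.0 CPM in p53 to 14.7, 12.9 and 18.4 CPM (edgeR adjusted p = 0.0078). The chemokine gene CXCL11 went from 11.7 and 9.31 to 4.75, 2.79 and 5.03 CPM, and TRIM5, which intercepts retroviral capsids, from 42.6 and 39.0 to 20.4, 17.1 and 23.4 CPM. The antibody receptor and ligase gene TRIM21 fell 1.80-fold, and UBE2L6, which hands ISG15 to its ligases, fell 1.59-fold. Of the 6 receptor genes, 11 sensors and adaptors and 8 kinases and transcription factors tested, 0 were called by edgeR, with 0, 3 and 2 of them lower at an unadjusted p under 0.05 (7.94% of all genes). IFNB1 and the IFNL genes had 0 to 3 reads in each LLPSEp53_2 library and 0 to 4 in p53 replicates 1 and 3, too few to compare. LLPSEp53_1 against p53 and LLPSEp53_2 against LLPSEp53_1 had 0 of the 62 called by edgeR, with 11 and 14 lower at an unadjusted p under 0.05 (7.34% and 4.50% of all genes).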

How the data were processed

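Libraries for Illumina sequencing were made from total RNA of H1299 cells, per the labels' protocols. The submitters' processing notes name Trimmomatic 0.39, STAR 2.7.10a and the build GRCh38. How reads were assigned to genes, with which annotation and strand setting, is not stated there. Each deposited file holds the raw read counts of 1 library, which the authors left without normalization, as the whole-number values show. The column names deposited with the LLPSEp53_1 libraries read LLPSEp53_1, LLPSEp53_2 and LLPSEp53_3 for replicates 1, 2 and 3. Whether that number means a replicate or a construct is not stated, so the group rests on sample titles. Symbols matched 61399 of 61552 IDs. Positions of genes are those of GENCODE 29 on GRCh38. A gene can begin there before the RefSeq start used for its promoter, as ISG15, MX1 and IFI44L do. Positions of the ISRE core refer to the RefSeq start only.

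Counts were tested with edgeR 4.0.16 (TMM scaling, filterByExpr, quasi-likelihood test) in R 4.3.3, with Benjamini-Hochberg adjustment over all genes tested and a threshold of 0.05, called here. WT and Ctrl were fitted on 6 libraries. The 9 libraries of 2022 were fitted with a batch term, which takes p53 replicate 2 out of every difference. All adjusted p-values are edgeR's. Alternatives were DESeq2 1.42.0, relative log expression (RLE) scaling, no count filter, each library left out, a replicate block, no batch term, and only the groups compared. The fits were tested on simulated data. Within each group all libraries differed by more than sampling noise (chi-square divided by its degrees of freedom, 7.46 to 128).

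The genes and lists were chosen with earlier results of these data known. Named with values are all called genes, the 3 smallest p-values in each direction per comparison, the 6 genes of highest mean CPM, and ISG15, IRF9 and TRIM22. Genes named for another reason were chosen after their values were seen. Promoters came from RefSeq. Certain results are not reported here.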

Additional observations from a re-analysis of the deposited data

Results flagged for a closer look

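The library p53 replicate 2, labelled as another batch and left out of every difference, showed signal above the control libraries. In it 41 of the 45 interferon-stimulated genes were above all 3 Ctrl libraries, and their summed level was 33403 CPM. The share of all genes that lay above the 3 Ctrl libraries there was not counted, so how unusual this is stays unknown. IFNB1 was at 6.80 CPM, IFNL1 at 12.2, IFNL2 at 5.70 and IFNL3 at 13.3 CPM there, each above the 3 Ctrl libraries, whose highest values were 1.80, 2.53, 1.13 and 3.602 CPM, all in Ctrl replicate 2. CPM values were scaled within each year. As a share of unscaled counts the 45 genes took 3.16% of that library and at most 2.02% of a Ctrl library.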

How the results depend on the processing

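The labels do not tie same-numbered libraries together. Over all genes, deviations of WT and Ctrl replicates 1, 2 and 3 from their groups correlated at 0.086, 0.247 and 0.021 with the same number. WT replicates 1 and 2 correlated best with the Ctrl library of their own number, and WT replicate 3 with Ctrl replicate 1 (0.134). Of the Ctrl libraries, only replicate 2 correlated best with its own number. Between groups of 2022 the same-number values ran from -0.385 to 0.144. The sums of the 45 genes ran in the same order in WT and Ctrl, lowest in replicate 1 and highest in replicate 2. Whether the numbers mark libraries handled together was not tested. With the replicate number as a block, 18, 0, 5 and 0 of the interferon-stimulated genes were called in WT against Ctrl, LLPSEp53_1 against p53, LLPSEp53_2 against p53 and LLPSEp53_2 against LLPSEp53_1, and 1645, 40, 183 and 33 of all genes, where the fits without it gave 0, 1, 13 and 2 and 665, 155, 337 and 65.

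In the same order of the last 3 comparisons, DESeq2 called 258, 507 and 151 of all genes, and 27 and 12 interferon-stimulated genes in the last 2. With no count filter, 17, 4, 27 and 16 interferon-stimulated genes were called in the 4 comparisons and 562, 823 and 235 of all genes in the last 3, with more genes tested. RLE scaling left 0 called in LLPSEp53_1 against p53. Without the batch term, which lets p53 replicate 2 in, 94 of all genes and 0 interferon-stimulated genes were called in LLPSEp53_1 against p53 (median -1.40), 5 interferon-stimulated genes in LLPSEp53_2 against p53 (median -1.82), and 3 of all genes and 0 interferon-stimulated genes in LLPSEp53_2 against LLPSEp53_1. Signs turned there for IFITM3 (-0.45), ISG15 (-0.41) and ISG20 (-0.61) in LLPSEp53_1 and IRF9 (-0.28) in LLPSEp53_2, each against p53. With only the groups compared in the fit, 64, 1040 and 35 of all genes were called in the 2022 comparisons, and 31 and 1 interferon-stimulated genes in the last 2, the 1 being neither IFI6 nor ISG15. With both second replicates of 2023 left out, 1042 of all genes and 6 interferon-stimulated genes were called, and IFIT2 (0.029), IFIT3 (0.0048) and TRIM22 (0.11) turned sign. The cause of these shifts was not tested.

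With each library left out in turn, the genes called ranged from 356 to 1381, 0 to 568, 93 to 928 and 21 to 198 in the 4 comparisons, and the interferon-stimulated genes called from 0 to 21, 0 to 7, 1 to 30 and 0 to 9. In WT against Ctrl the difference of IFIT1 ranged from -0.37 to 0.091, IFIT2 from -0.30 to 0.16, IFIT3 from -0.29 to 0.14 and TRIM22 from -0.81 to 0.66, all above 0 without Ctrl replicate 2. IRF9 ranged from -0.13 to 0.37 in LLPSEp53_2 against p53 and from -0.069 to 0.24 against LLPSEp53_1, and GBP2 there from -0.30 to 0.29. Where p53 is left with 1 library, it is assumed to vary like the other groups. Of 496 values of named genes under all alternatives, 370 kept their direction and side of the threshold, 85 lost a call, 24 gained one and 17 turned sign.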
